A study of Caenorhabditis elegans with 2 samples.

Results

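The 7 kinesin genes klp-7, klp-15, klp-16, klp-18, klp-19, zen-4 and bmk-1, whose products build and divide the spindles of oocytes and embryos, were examined in a ChIP-seq map of the forkhead transcription factor UNC-130 in Caenorhabditis elegans. They are 7 of the 19973 protein-coding genes on the nuclear chromosomes of the WBcel235 annotation. The genes were chosen by name, with the peak lists in view. For each, every listed region was taken whose summit, the position of highest signal, lay between 1000 bp ahead of the first annotated transcript start and the 3′ end of the gene. Because measured signal chose the members, how many of them carried a peak and how strong those peaks were are given as descriptions, without a test.

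The series held 1 group, 2 biological replicates of whole young adult hermaphrodites of strain AGK541, collected 56 hours after synchronization, which was done by bleaching and starving the larvae at the first stage. All worms carried the single transgene armSi1, in which the mex-5 promoter, active in the germline, drives UNC-130 fused to GFP with the tbb-2 3′ UTR, together with the cb-unc-119(+) rescue gene on chromosome II, in a background of unc-119(ed3) on chromosome III and niDf199 on chromosome IV. The labels describe a C-terminal GFP-FLAG tag, and name GFP as the target of the antibody in one field and unc-130 in another. There was no untagged strain or second stage among the samples used here, so nothing below compares conditions. Expression came from a germline promoter in whole animals, and the region lists hold no expression values against which the tissue could be checked. klp-18 and zen-4 lie on the same chromosome as niDf199, whose extent the labels do not give.

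The lists on the ce11 build, the same assembly as WBcel235, held 21622 candidate regions in replicate 1, 20625 in replicate 2 and 22106 in the pooled replicates, peaks and background together. The authors' optimal list, kept after comparing the ranks of peaks between replicates, held 1168 entries, of which 1145 were nuclear. These were exactly the 1168 pooled entries with a signal of 53.5 or more, and their median signal was 75.3. The signal is the peak caller's own value on an unstated scale, so a value is compared within its own list and the lists are compared by rank, where rank 1 is the highest signal. No read counts were used, so the depth of the replicates is unknown.

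Kinesins are motor proteins that use ATP to walk along microtubules or to take them apart. In C. elegans oocytes the meiotic spindles form without centrosomes, and motors sort the microtubules into poles, whereas the mitotic spindles of the embryo grow from centrosomes that sperm bring in. The mother supplies much of the RNA and protein for both, so that genes of the spindle are expressed in the adult germline. KLP-18, KLP-15 and KLP-16 act in assembling the oocyte spindle, KLP-7 depolymerizes microtubule ends, KLP-19 acts on chromosomes, and ZEN-4 and BMK-1 act on the spindle midzone and on antiparallel microtubules.

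Optimal summits lay at 6 of the 7 spindle kinesin genes, all but klp-19, against 1241 of 19973 protein-coding genes (6.21%). The members held 8 optimal entries in all, 2 each at klp-15 and klp-18 and 1 each at klp-7, klp-16, zen-4 and bmk-1. All 7 genes held a pooled candidate region, which was true of 10449 protein-coding genes (52.3%). Restricting the search to promoter windows, from 1000 bp upstream to 200 bp downstream of any transcript start, also gave 6 of 7, against 1056 genes (5.29%). When each summit was given only to the gene with the nearest transcript start, 4 of 7 kept one, namely klp-7, klp-15, klp-16 and zen-4, against 848 genes (4.25%). The members are longer than most genes, at 2125 to 5077 bp against a median of 2027 bp. Among the 6381 protein-coding genes in the same range of length, 461 (7.22%) held an optimal summit in the same window.

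**Figure D1:**
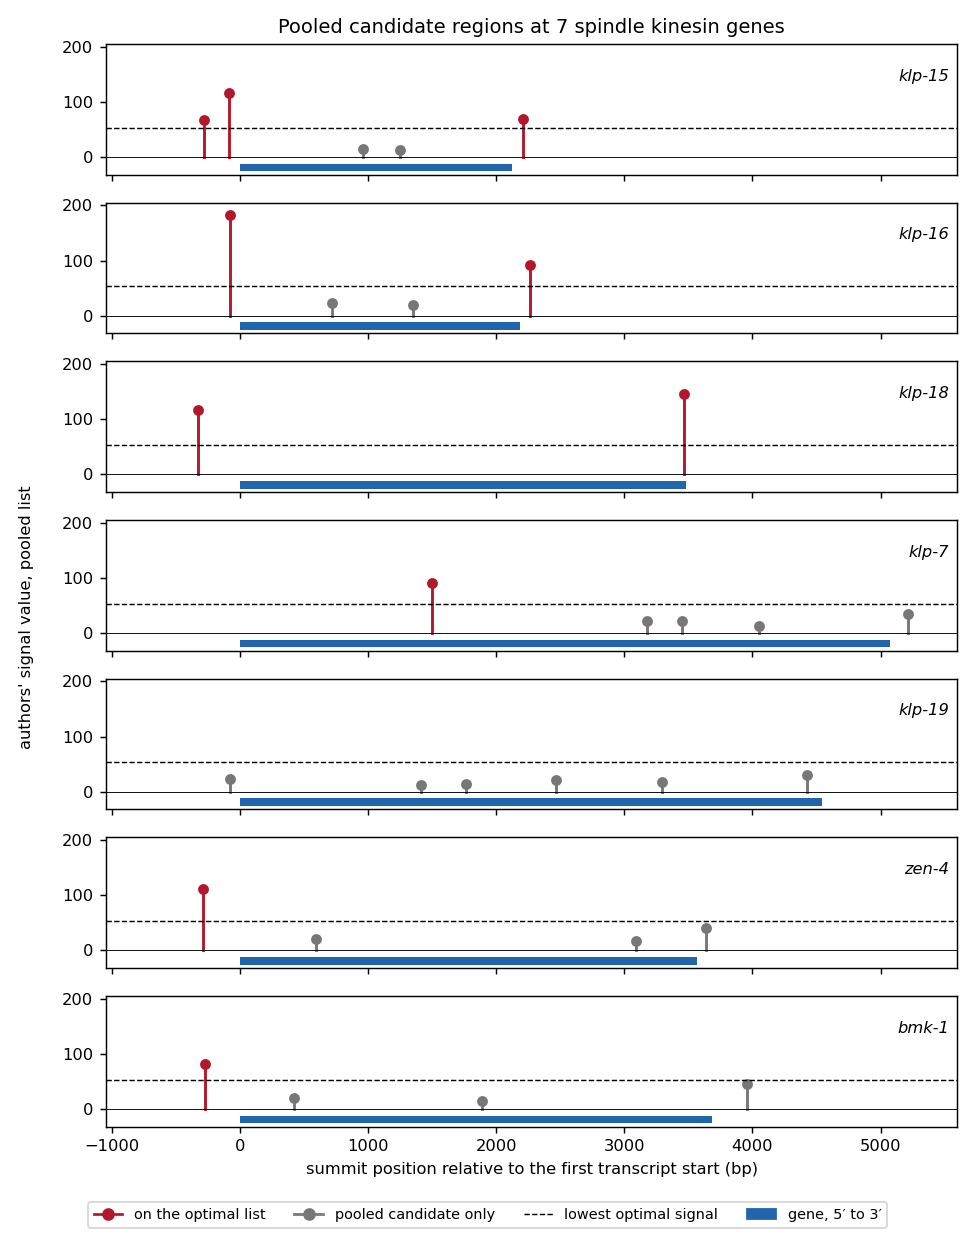
Signal of every pooled candidate region (vertical axis, the authors' value) at its summit position in bp from the first transcript start (horizontal axis), for each of the 7 genes, with regions up to 300 bp past the gene end also drawn. Red marks regions on the optimal list, grey the other pooled regions, the dashed line the lowest optimal signal of 53.5 and the blue bar the gene. Tall red regions stand upstream of klp-15, klp-16, klp-18, zen-4 and bmk-1, in the first intron of klp-7 and at the 3′ ends of klp-15, klp-16 and klp-18, while every region of klp-19 is grey.

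By pooled signal the best region of each gene ran in the order klp-16 (183), klp-18 (146), klp-15 (117), zen-4 (111), klp-7 (90.5), bmk-1 (81.9) and klp-19 (29.7). Both replicates placed klp-16 first and klp-18 second among the 7 genes, and klp-19 last. The ranks of klp-15 were 285 and 160 in replicates 1 and 2, and those of zen-4 were 427 and 138, so these neighbours overlapped. The ranks of klp-7, 436 and 491, likewise overlapped those of bmk-1, 659 and 445. Of the 8 optimal entries, 7 were among the 1168 best regions of each replicate taken alone, against 738 of the 1145 nuclear optimal entries (64.5%). These 7 had pooled ranks of 41 to 489, and the members were chosen with signal in view. The difference in share is therefore a description and says nothing of how well the members repeat. The summits that the replicates placed in these 8 entries lay 9 to 55 bp apart, and over all nuclear optimal entries the median gap was 32 bp, with quartiles of 14 and 60 bp.

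**Figure D2:**
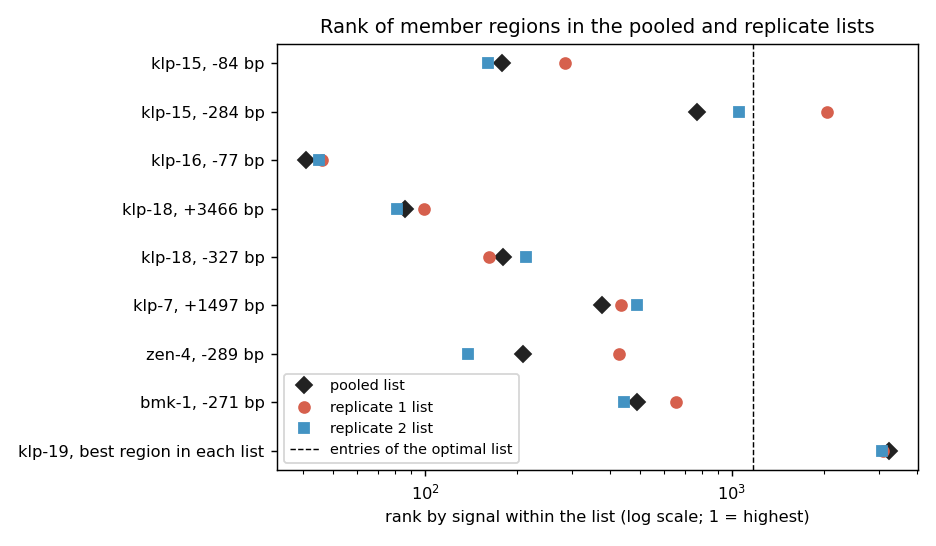
Rank by signal (horizontal log axis, 1 is the highest) of the 8 optimal entries at the kinesin genes and of the best klp-19 region in each list, in the pooled list (black), replicate 1 (red) and replicate 2 (blue). Row labels give the summit position from the first transcript start and the dashed line marks the 1168 entries of the optimal list. klp-16 keeps ranks of 41 to 46 in all 3 lists, zen-4 spreads from 138 to 427, the second klp-15 entry reaches 2040 in replicate 1, and klp-19 lies beyond the dashed line in each.

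Sequences are given for the genes that show the range of what was found under the summits. Each is 151 bases of the RefSeq genome (WBcel235) centred on the pooled summit, read 5′ to 3′ on the strand of the gene, and no printed window overlaps an annotated UTR. They are III:10807347-10807497 for klp-7 (plus strand, in intron 1), IV:7039809-7039959 for klp-18 (plus strand), III:13307261-13307411 for klp-19 (minus strand, a candidate that did not reach the optimal list), V:14457180-14457330 for bmk-1 (minus strand) and IV:6117851-6118001 for zen-4 (plus strand). Capitals mark matches, on either strand, to the E2F-type string TTNNCGC with C or G at each N, to the looser forkhead string described below, and to CGCGAANTT, a string that was noticed on reading these sequences. In klp-18 and klp-19 the E2F-type and CGCGAANTT matches overlap and make 1 capital run. The long capital runs of klp-7 and bmk-1 are CGCGAANTT alone, the second run of bmk-1 is the looser forkhead string, and zen-4 has none.
klp-18: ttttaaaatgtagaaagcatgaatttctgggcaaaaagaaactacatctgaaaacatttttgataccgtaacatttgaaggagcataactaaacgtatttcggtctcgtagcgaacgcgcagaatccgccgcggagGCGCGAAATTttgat
klp-7: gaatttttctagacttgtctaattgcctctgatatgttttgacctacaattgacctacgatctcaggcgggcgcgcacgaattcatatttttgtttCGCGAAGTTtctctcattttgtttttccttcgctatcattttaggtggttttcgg
klp-19: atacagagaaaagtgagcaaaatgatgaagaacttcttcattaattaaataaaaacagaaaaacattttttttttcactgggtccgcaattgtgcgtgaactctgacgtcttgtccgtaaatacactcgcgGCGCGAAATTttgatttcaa
zen-4: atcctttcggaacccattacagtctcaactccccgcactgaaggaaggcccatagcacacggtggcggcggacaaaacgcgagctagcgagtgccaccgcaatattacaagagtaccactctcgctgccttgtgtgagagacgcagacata
bmk-1: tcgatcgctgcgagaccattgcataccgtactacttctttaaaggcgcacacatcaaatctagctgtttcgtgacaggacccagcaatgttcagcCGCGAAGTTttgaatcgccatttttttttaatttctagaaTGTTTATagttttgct

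The klp-18 and klp-19 sequences are identical over 16 bases across the capital run, and that run occurs 6 times in the genome. Within 100 bp of the summit on either side, CGCGAANTT was found at 4 of the 8 optimal entries of the members, those of klp-7, klp-18 (promoter), bmk-1 and klp-15 (the stronger entry). It was also found at the klp-19 promoter candidate. The same string was in 53 of 1145 nuclear optimal windows (4.63%), in 47 of 761 optimal windows with a promoter summit (6.18%) and in 199 of 20584 windows of pooled candidates that overlapped no optimal entry (0.967%). Because the string was picked out from the members' own sequences, these counts describe it and test nothing. Its opening letters CGCGAA also end GCGCGAA, which is the E2F-type string TTCGCGC read on the other strand. Counts of CGCGAANTT and of E2F-type strings are therefore not independent. CGCGAANTT lay 21 bp from the summit at klp-7, 28 bp at bmk-1, 62 bp at klp-18 and 96 bp at klp-15.

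E2F-type strings, the kind of letters bound by E2F factors, which control cell cycle genes, were in 4 of the 8 windows of 200 bp. They were at both klp-18 entries, at klp-16 and at the stronger klp-15 entry, which held 2 matches. All nuclear optimal windows held them in 268 of 1145 cases (23.4%), optimal promoter windows in 28.6% and background candidates in 8.73%. The forkhead consensus GTAAACA, the letters typical of the DNA-binding domain that UNC-130 carries, was in 1 of 8, at the weaker klp-15 entry, against 2.97% of all optimal and 2.13% of background windows. A looser forkhead string (A or G, then C or T, then A or C, then AACA), which includes the consensus, was in 3 of 8, at klp-16, bmk-1 and the weaker klp-15 entry, against 27.7% and 22.5%. TGATAA, the GATA-factor string, was in 1 of 8, at the 3′ end of klp-18, against 12.8% and 15.8%. The E-box CACGTG was in none of the 8, against 4.54% and 4.04%. With 8 windows these counts are descriptions, and a match is not evidence of binding by the factor it is named for.

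KLP-18, a kinesin of the kinesin-12 family, sorts microtubules so that their minus ends face outward in the oocyte spindle. Its gene (WBGene00002228, IV:7040211-7043694, plus strand) had an optimal entry in front of it, IV:7039669-7040098, with the summit 327 bp upstream of the only transcript start. Its signal was 117 in the pooled list (rank 179), 66.9 in replicate 1 (rank 161) and 52.9 in replicate 2 (rank 214). The summit lay between klp-18 and the divergent gene cogc-2, which encodes a subunit of a Golgi tethering complex, and the start of cogc-2 was 304 bp away, slightly closer than that of klp-18. In replicate 1 the summit moved to 309 bp from klp-18 and klp-18 became the nearer gene.

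The stronger klp-18 entry was at the other end of the gene, IV:7043569-7043790, with its summit in the 3′ UTR and 17 bp before the annotated gene end. Its signal was 146 pooled (rank 86), 76.7 in replicate 1 (rank 99) and 73.3 in replicate 2 (rank 81), all above the promoter entry of the same gene. The nearest protein-coding start was that of tin-9.1, a small translocase subunit of the mitochondrial inner membrane, 925 bp away. The 2 replicates put the summit 61 bp and 6 bp before the gene end. The 30 bases IV:7043658-7043687 around the match nearest to this summit are shown because they hold the E2F-type string on the minus strand, in capitals, with the sequence read on the plus strand.
klp-18 3′ end: tccaggggtgcGCGGCAAtttccgaaacca

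KLP-15 and KLP-16 are minus-end-directed motors of the kinesin-14 family that act redundantly in oocyte spindle assembly. The 2 genes are close copies that lie far apart on chromosome I. Their coding sequences have 1761 nucleotides each and are 93.8% identical position by position, and their proteins of 587 residues are 91.1% identical. None of the 36-base words in the 500 bp before klp-15 was found in the 500 bp before klp-16, against 13.9% of the words of the gene body. Such words must match exactly and the upstream sequences were not aligned, so weaker likeness between them was not tested. Every 36-base word of the 3 upstream optimal entries of these genes occurred once in the genome. How the authors treated reads that map to more than 1 place is not stated in the labels or listings.

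klp-16 (WBGene00002226, I:9512452-9514637, plus strand) had the strongest region of the 7 genes. The optimal entry I:9512275-9512503 had its summit 77 bp upstream of the start, with a signal of 183 pooled (rank 41), 99 in replicate 1 (rank 46) and 85.8 in replicate 2 (rank 45). Among nuclear entries alone it ranked 25 in the pooled list. Directly above it in the pooled list stood regions whose nearest genes were rib-2, a heparan sulfate synthesis enzyme (186), and lea-1 (183), and directly below it cox-5B, a cytochrome oxidase subunit (183), and drr-2 (182). The entry was 229 bp wide, against a median of 430 bp for the optimal list. Its summit also lay 139 bp from the nearest start of smn-1, which encodes the survival motor neuron protein of snRNP assembly and is transcribed the other way, and inside the annotated exon of the microRNA gene cel-mir-4932 (I:9512307-9512416, plus strand). Which of the 3 genes the bound site serves cannot be read from position.

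klp-15 (WBGene00002225, I:5577070-5579194, minus strand) had 2 optimal entries in front of it. The stronger, I:5579063-5579492, had its summit 84 bp upstream of the start, with a signal of 117 pooled (rank 178), 55.5 in replicate 1 (rank 285) and 59.1 in replicate 2 (rank 160). The weaker, I:5579263-5579692, had its summit 284 bp upstream, with a signal of 66.9 pooled (rank 769), 22.8 in replicate 1 (rank 2040) and 28 in replicate 2 (rank 1052). This was the only entry of the 8 that fell outside the best 1168 regions of a replicate. Both summits also lay in the promoter window of the divergent gene ctnb-1, at 388 and 188 bp, and the weaker one was closer to ctnb-1 than to klp-15. Within the gene bodies of klp-15 and klp-16, pooled signals were 13.5 to 22.4, far below the optimal limit.

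KLP-7, a kinesin-13 of the MCAK type, removes tubulin from microtubule ends and limits microtubule outgrowth in oocytes and embryos. Its gene (WBGene00002219, III:10805925-10811001, plus strand) is the longest of the 7 and has 2 transcripts with separate starts. No region lay upstream of the first start. The optimal entry III:10807207-10807636 had its summit 1497 bp into the gene, in the 2242 bp first intron of transcript K11D9.1a.1 and 919 bp upstream of the start of K11D9.1b.1. Its signal was 90.5 pooled (rank 377), 47.6 in replicate 1 (rank 436) and 39.2 in replicate 2 (rank 491), with the replicate summits 9 bp apart, the closest of the 8 entries. The entry counts as a promoter one only through the second start. A 21U-RNA gene, 21ur-9572, lies 60 bp from the summit. The 3 other pooled regions in the gene were in coding exons, with signals of 13.2, 21.9 and 22.3.

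KLP-19, a chromokinesin of the kinesin-4 family, is found around chromosomes in oocyte meiosis and helps them to line up. Its gene (WBGene00002229, III:13302717-13307259, minus strand) held 6 pooled candidates, more than any other member, and none reached the optimal limit of 53.5. The best was in the 3′ UTR, 4425 bp from the start, with a signal of 29.7 (rank 3252) and a −log10 q-value of 1.9, where all optimal entries had 3.56. The promoter candidate, 77 bp upstream of klp-19 and 166 bp from the divergent transporter gene slc-36.1, had a signal of 23.3 (rank 5383). Replicate 1 ranked the 3′ UTR region highest (18.6, rank 3092), and replicate 2 a region 44 bp upstream of the start (16.9, rank 3080). The replicates therefore did not place the best klp-19 region at the same end of the gene, although the 2 best ranks were alike. The other 4 pooled regions, in coding exons and an intron, had signals of 13.1 to 21.9.

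ZEN-4, the kinesin-6 of the MKLP type, forms centralspindlin with CYK-4, bundles midzone microtubules and is needed to complete cytokinesis. Its gene (WBGene00006974, IV:6118215-6121777, plus strand) has 9 annotated transcripts with 4 starts, and the summit of the optimal entry IV:6117873-6118022 was 289 to 294 bp upstream of all of them. Its signal was 111 pooled (rank 208), 47.8 in replicate 1 (rank 427) and 62.3 in replicate 2 (rank 138). These ranks were the farthest apart, in proportion, of any best region among the members. No other protein-coding gene has its promoter window here, but the snoRNA gene M03D4.78 (IV:6117751-6117876, minus strand) lies 50 bp from the summit. The entry was the narrowest of the 8, at 150 bp, and its 200 bp window had the highest GC content, 50.5%, where the members spanned 31% to 50.5% and all nuclear optimal windows had a median of 39.5% (quartiles 35.5% and 45%). When summits within 200 bp of tRNA, snoRNA or snRNA genes were set aside, zen-4 lost its entry. Then 5 of the 7 members remained, against 1069 protein-coding genes (5.35%).

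BMK-1, the BimC-type kinesin-5, binds antiparallel microtubules of the spindle. Its gene (WBGene00000257, V:14453302-14456984, minus strand) has 2 transcripts. The optimal entry V:14457040-14457469 had its summit 271 bp upstream of the first start and 531 bp upstream of the second, with a signal of 81.9 pooled (rank 489), 39.7 in replicate 1 (rank 659) and 40.7 in replicate 2 (rank 445). The start of the divergent gene coh-3, which encodes a meiotic cohesin subunit, was 167 bp from the summit, closer than that of bmk-1. The 2 pooled candidates within the gene had signals of 14.6 and 19.7.

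Optimal summits in promoter windows lay at a median position of −198 bp from the nearest start (negative upstream) over the 761 such entries, with quartiles at −340 and −95 bp. By the nearest start, the klp-18 summit lay at −304 bp (cogc-2), that of bmk-1 at −167 bp (coh-3) and the weaker klp-15 one at −188 bp (ctnb-1). These positions were inside that range. Measured instead from the member's own start, the summits of klp-18 (327 bp), zen-4 (289 bp), bmk-1 (271 bp) and the weaker klp-15 entry (284 bp) were inside it too. Those of klp-16 (77 bp) and the stronger klp-15 entry (84 bp) were closer to the start, and that of klp-7 (919 bp from its second start) was farther. Of the 761 summits, 304 (39.9%) lay in the promoter window of more than 1 gene. The 5 promoter entries at klp-15, klp-16, klp-18 and bmk-1 were shared in this way with a divergent neighbour, and those of zen-4 and klp-7 were not. ChIP-seq gives the position of a site, not the gene it acts on, so at the shared promoters the kinesin and its neighbour cannot be told apart.

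**Figure D3:**
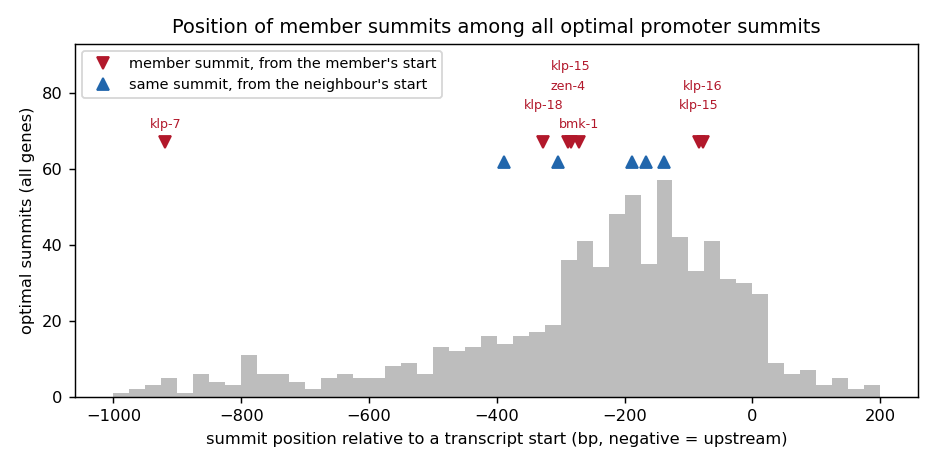
Number of optimal promoter summits of all genes (grey bars, bins of 25 bp) by position from the nearest transcript start in bp, negative upstream. Red triangles mark the members' summits from their own starts and blue triangles the same summits from the neighbour's start. Most member summits fall between 327 and 77 bp upstream, klp-7 lies at 919 bp from its second start, and the 5 shared summits are 139 to 388 bp from the neighbouring gene.

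The 3′ ends of 3 of the 7 genes also carried an optimal summit within 100 bp, against 169 of 19973 protein-coding genes (0.846%). The distance was chosen after the values were seen, so the share is a description. Besides the klp-18 entry 17 bp inside the gene, an entry lay 75 bp past the end of klp-16, I:9514497-9514926, with a signal of 92.4 pooled (rank 358), 42.6 in replicate 1 (rank 567) and 47.4 in replicate 2 (rank 296). Another lay 82 bp past the end of klp-15, I:5576773-5577202, with 69.5 pooled (rank 704), 43.5 in replicate 1 (rank 539) and 29.9 in replicate 2 (rank 904). These 2 entries fell just outside the window that defined the members' regions, and the klp-18 entry just inside it. All 36-base words of the klp-16 entry and 99.7% of those of the klp-15 entry occurred once in the genome. Regions near the other 4 gene ends did not reach the optimal list, with pooled signals of 45.2 at 278 bp past bmk-1, 40.5 at 72 bp past zen-4, 34.4 at 141 bp past klp-7 and 29.7 at 117 bp inside klp-19. At the upstream limit of the window, the nearest regions left out were at 1208 bp before klp-16 (signal 32.9) and 1296 bp before klp-18 (12.5).

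Other kinesin genes made the nearest comparison. Of 14 listed, 12 were matched by name in the annotation. These were unc-116, unc-104, osm-3, vab-8, klp-3, klp-4, klp-6, klp-11, klp-12, klp-13, klp-17 and klp-20. The list was not sorted by role, so it does not stand for kinesins that act outside the spindle. Optimal summits were at 6 of 7 spindle kinesins, against 0 of these 12 and 6.21% of all protein-coding genes. Pooled candidates were present at all 7 spindle kinesins and at 9 of the 12. The highest were at unc-104, the carrier of synaptic vesicle precursors, with 51.3 (rank 1256), just under the optimal limit, and at unc-116, the conventional kinesin heavy chain, with 44.5 (rank 1628). The median of their best ranks was 4286 and the last was 19745. Among the 1168 best regions of replicate 1 alone, 2 of the 12 were reached, unc-104 and klp-6, and among those of replicate 2 none.

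Genes for the proteins that work beside these motors were listed by spindle structure. Of these, 26 of 50 had an optimal summit in the gene window, against 6.21% of all protein-coding genes. By group the counts were 10 of 14 for the kinetochore, 7 of 13 for the centrosome, 4 of 7 for the acentrosomal meiotic spindle, 2 of 5 for tubulin and plus-end proteins, 1 of 2 for centralspindlin and the midzone, 1 of 4 for the chromosomal passenger complex and 1 of 5 for dynein. The highest pooled signals were at tbb-1, a beta-tubulin (186, rank 39, the entry named above for rib-2, whose start is nearer), hcp-3, the centromeric histone (169, rank 55), the centriole gene sas-4 (131, rank 119, nearer to the start of F10E9.11) and hcp-1, an outer kinetochore protein (123, rank 154). Partners of the members at the protein level were split in the gene window. There spd-1, the midzone bundling protein, had an optimal summit while cyk-4, the partner of ZEN-4, had none. The spd-1 summit was nearer to the start of Y34D9A.3. Under a limit of 500 bp upstream, or with nearest starts only, neither spd-1 nor cyk-4 had one. At the meiotic spindle, mei-2, aspm-1, lin-5 and gpr-2 had an optimal summit and mei-1, mel-26 and gpr-1 did not. The summits of mei-2, aspm-1 and gpr-2 were nearer to the starts of syp-6, lipt-1 and rgr-1. With nearest starts only, lin-5 alone of this group kept a summit. As with the kinesins, the count depended on the assignment. With nearest starts only, 4 of 7 spindle kinesins kept a summit, against 13 of 50 partners and 4.25% of all protein-coding genes. The lists were drawn up with earlier results of these data known, and their counts were not tested.

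**Figure D4:**
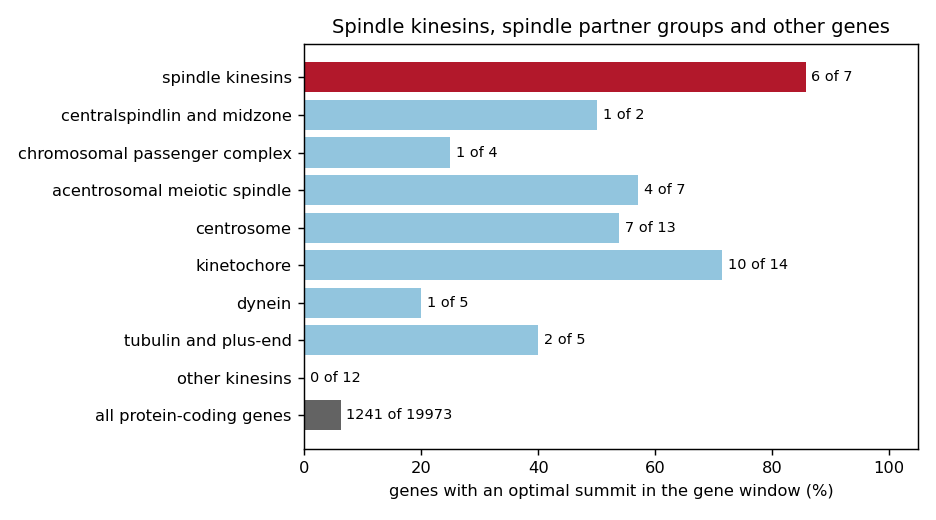
Percentage of genes with an optimal summit in the gene window (horizontal axis, from 0) for the 7 spindle kinesins (red), the 7 groups of spindle partners (light blue), the 12 other kinesins and all 19973 protein-coding genes (dark grey), with the count beside each bar. The spindle kinesins stand at 6 of 7 and the kinetochore group at 10 of 14, while the other kinesins stand at 0 of 12 and all genes at 6.21%.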

How the data were processed

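UNC-130 carrying a GFP tag was mapped by ChIP-seq in 2 biological replicates, numbered and fragmented by sonication per the labels. The authors deposited region lists for each replicate, for the pooled replicates and, after the irreproducible discovery rate (IDR) procedure, an optimal list. The deposited listings trace them to alignments and 1 control file, and state neither aligner, peak caller nor IDR threshold. The deposited signal of a region is a value from the authors' peak caller, on an unstated scale. The deposited −log10 q-value was at its maximum for every optimal entry. The deposited summit offset falls under no other unit.

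From the ce11 lists, summits were placed on the Ensembl release 115 annotation with Python 3.11.15, pandas 2.3.3 and Biopython 1.88, and ranked by signal within each list. Assignment by gene window and by promoter window, and the search for the E2F-type string, were tested on simulated data. For the promoter window only summits at its upstream limit were planted, so its downstream limit and exclusion outside it were not tested. Assignment by nearest start and by region overlap was not tested. Coordinates are 1-based. Strings were searched on both strands in 200 bp windows. The lists on ce10 were not converted; only the lowest optimal ce10 signal, 46.8, was used, as an alternative. Alternatives were other windows, nearest start only, region overlap of at least 1 bp, the upper 50% of optimal entries, each replicate alone and nuclear entries only. The ce10 limit and leaving out summits near small RNA genes were alternatives chosen after seeing the data.

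The 7 members, the gene lists and the strings were chosen with earlier results of these data known. Named genes were the 7 members, genes sharing their summits, the 2 nuclear regions above and below klp-16 in rank, and up to 4 partners of highest signal with values. Values at gene ends and the CGCGAANTT string were added after the data were seen. Alignments and control reads were not analysed here, and no p-value was computed.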

Additional observations from a re-analysis of the deposited data

How the results depend on the processing

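Counts were taken as alike within 1.5 times, and a rank as alike where it differed from the pooled rank by no more than the SD of the 2 replicate ranks, a narrow limit where the replicates are close (klp-16, klp-19) and a wide one where they are not (zen-4). The count of kinesin genes with an optimal summit was 6 under the other windows, in the upper part of the list, under the ce10 limit and in each replicate alone (lowest 6, highest 6), 4 with nearest starts only and 5 without summits near small RNA genes. The other kinesins gave 2 in the replicate 1 list and 0 in that of replicate 2, and 1 (unc-104) with the ce10 limit. Spindle partners fell to 13 with nearest starts only, and gave 26 to 27 in single replicates. All protein-coding genes gave 654 with the upper 584 entries and 1224 to 1234 in single replicates. In 100 bp windows, E2F-type strings were at 2 of the 8 member entries, against 15.7% of all optimal and 4.67% of background windows, and the forkhead consensus at 0, against 1.66% and 1.08%. In 400 bp windows the consensus was at 2 (5.85% and 4.39%), the looser string at 6 (47.2% and 39.9%) and the GATA string at 2 (28.0% and 29.8%).

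Among nuclear entries only, klp-16 ranked 25, klp-18 ranked 69 and klp-19 ranked 3229. Each replicate alone ranked klp-7 at 436 to 491, klp-15 at 160 to 285, klp-16 at 45 to 46, klp-18 at 81 to 99, klp-19 at 3080 to 3092, zen-4 at 138 to 427 and bmk-1 at 445 to 659. The cause of these shifts was not tested. With 1 group, 2 replicates and no depth, no error beyond the spread of the replicates can be given. No paired analysis was possible because the samples form 1 group.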

Other observations

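At klp-7 the weaker regions were placed differently by the replicates. In coding sequence, replicate 1 held a region 3229 bp from the first start, with a signal of 24.5 (rank 1759) and a −log10 q-value of 3.07, and another at 3446 bp, with a signal of 16.3 (rank 4096). The closest region of the replicate 2 list was 2839 bp from that start, with a signal of 17.1 (rank 2961). The pooled list held 2 regions here, at 3179 bp (rank 6108) and 3453 bp (rank 5866). Past the end of klp-7 all 3 lists held a region, with rank 989 in replicate 2, inside its best 1168, rank 9280 in replicate 1 and rank 2510 in the pooled list. The klp-18 gene body held no region in any list apart from the one at its 3′ end.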
